A study of Homo sapiens with 6 samples.

Results

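SNAI1, SNAI2, ZEB1 and ZEB2 encode transcription factors of the epithelial to mesenchymal transition (EMT), and CDH1 encodes E-cadherin, the adhesion protein of epithelial junctions. These 5 genes were taken by name from the 30099 genes listed in each library, through their Ensembl identifiers in GENCODE release 29. The rule that names them uses no measured value, but it was chosen with earlier results of these data known. RNA of 3 Pep2-E3 libraries was compared with RNA of 3 MDA-MB-231 libraries. Pep2-E3 cells have the MDA-MB-231 background and carry the genotype label Pep-E3, and MDA-MB-231 cells are labelled as control. MDA-MB-231 is an established human breast cancer cell line of mesenchymal form. The labels do not say what Pep2-E3 or Pep-E3 stands for, or whether the Pep2-E3 cells are 1 clone. Nor do they state that replicates come from separate cultures, and the p-values therefore reflect differences among libraries that may be technical.

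EMT is a switch in which epithelial cells lose their junctions and apical to basal polarity and take on a motile, mesenchymal form. The zinc finger proteins of the SNAI and ZEB families bind E-box motifs in the promoters of CDH1 and other junction and polarity genes and repress them together with corepressor complexes. ZEB1 and ZEB2 are in turn held down by the miR-200 family of microRNAs, and SNAI1 protein is short-lived because several ubiquitin ligases mark it for degradation.

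Values are FPKM, fragments per kilobase of exon, relative to the total of the library. They resolved into whole fragments, 17154511 to 17289162 per Pep2-E3 library and 17538266 to 18206694 per MDA-MB-231 library, which gives the number of fragments behind each value. Pep2-E3 replicate 1 stood apart, with a mean chi-square per gene of 15.2 and 19.98 against the other Pep2-E3 libraries, where all other pairs within a group had 2.68 to 4.16. Among markers of the cell line, VIM, a mesenchymal intermediate filament, had 152 to 163 FPKM in Pep2-E3 and 171 to 180 FPKM in MDA-MB-231 libraries. The summed FPKM of 5 mesenchymal markers, VIM among them, was 423 to 471 in Pep2-E3 and 512 to 526 in MDA-MB-231. By the test described below, 1 of the 4 tested, AXL, was lower in Pep2-E3, 25% against 30.8% of all tested genes. The summed FPKM of 10 epithelial markers was 220 to 245 in Pep2-E3 and 221 to 236 in MDA-MB-231, most of it from KRT8, KRT18 and KRT19. By the same test, 2 of the 7 tested were higher in Pep2-E3 and 3 lower, 71.4% against 30.8% of all tested genes. CDH1, which defines epithelial cells, was close to 0 in both groups. Of 4 markers of haematopoietic, endothelial or fibroblast cells with a value, summed FPKM was 1.25 to 1.46 in Pep2-E3 and 1.85 to 2.07 in MDA-MB-231, most of it from COL1A1. In bulk RNA, fewer cells of a type and less RNA per cell cannot be told apart. The libraries were made with a kit that does not mark strand, so reads of genes that overlap on opposite strands cannot be told apart.

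Of the 5 members only SNAI2 passed the test between the groups, and no test compared the members with each other. SNAI2 was higher in Pep2-E3 cells by a ratio of 2.38. SNAI1, ZEB1 and ZEB2 did not pass the test, and CDH1 stayed near the level of 3 fragments in all 6 libraries. The test was limma on log2(FPKM + 1) with Benjamini-Hochberg adjustment over the 14235 genes with a mean of at least 0.5 FPKM, called at an adjusted p under 0.05. Of the 5 members 4 reached that mean and 1 of these, SNAI2, was called, where 30.8% of all tested genes were called, 14.6% as higher and 16.2% as lower. A share of 1 in 4 is thus near the background of this comparison.

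SNAI2 (ENSG00000019549, chr8:48917604-48921740 on the minus strand, GRCh38) encodes Slug, a repressor of the Snail family active in neural crest and mammary progenitor cells. It had 1.58, 1.59 and 1.495 FPKM in Pep2-E3 replicates 1, 2 and 3, against 0.503, 0.648 and 0.807 FPKM in MDA-MB-231 replicates 1, 2 and 3. Every Pep2-E3 library lay above every MDA-MB-231 library. Groups that do not overlap were found for 48.8% of all tested genes, and Pep2-E3 was the higher group for 22.8% of all tested genes. The means were 1.55 ± 0.0509 FPKM in Pep2-E3 and 0.653 ± 0.152 FPKM in MDA-MB-231 (SD, n = 3 each). These values rest on 92, 93 and 87 fragments in Pep2-E3 and on 31, 40 and 48 fragments in MDA-MB-231. The SNAI2 levels of the 3 Pep2-E3 libraries were closer to each other than counting error alone gives on average, with an SD of 3.22 fragments against a counting SD of 9.52. The summed fragments gave a ratio of 2.39 with a 95% interval of 1.92 to 2.99, which, like all such intervals and limits here, covers counting error only.

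On the log2(FPKM + 1) scale the SNAI2 difference was 0.63 with a standard error (SE) of 0.09, a 95% interval of 0.41 to 0.86 and an adjusted p of 0.00416 by limma. The exact two-sided permutation test over the 6 libraries gave p = 0.1, the smallest that 3 against 3 allows. SNAI2 was called under all 14 alternatives run, with adjusted p between 0.000929 and 0.0221 by limma. Without the outlying Pep2-E3 replicate 1 and in the other fits that left out 1 library, its log2 difference was 0.57 to 0.70. The pseudocount of 1 is of the order of the gene's own level, and limma-voom on the recovered fragments gave a log2 difference of 1.27. Among all 14235 tested genes, 262 (1.84%) were called as higher in Pep2-E3 with a log2 difference at least as large as that of SNAI2. Genes that fell by as much are not in that count. The pseudocount compresses differences of low genes such as SNAI2 more than those of high genes, so the count depends on it. Of the 10 tested genes that flank SNAI2 most closely on chromosome 8, 3 were called as higher and 0 as lower. Over all tested genes 14.6% were called as higher and 16.2% as lower. The median log2 difference of these 10 genes was -0.04.

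**Figure D1:**
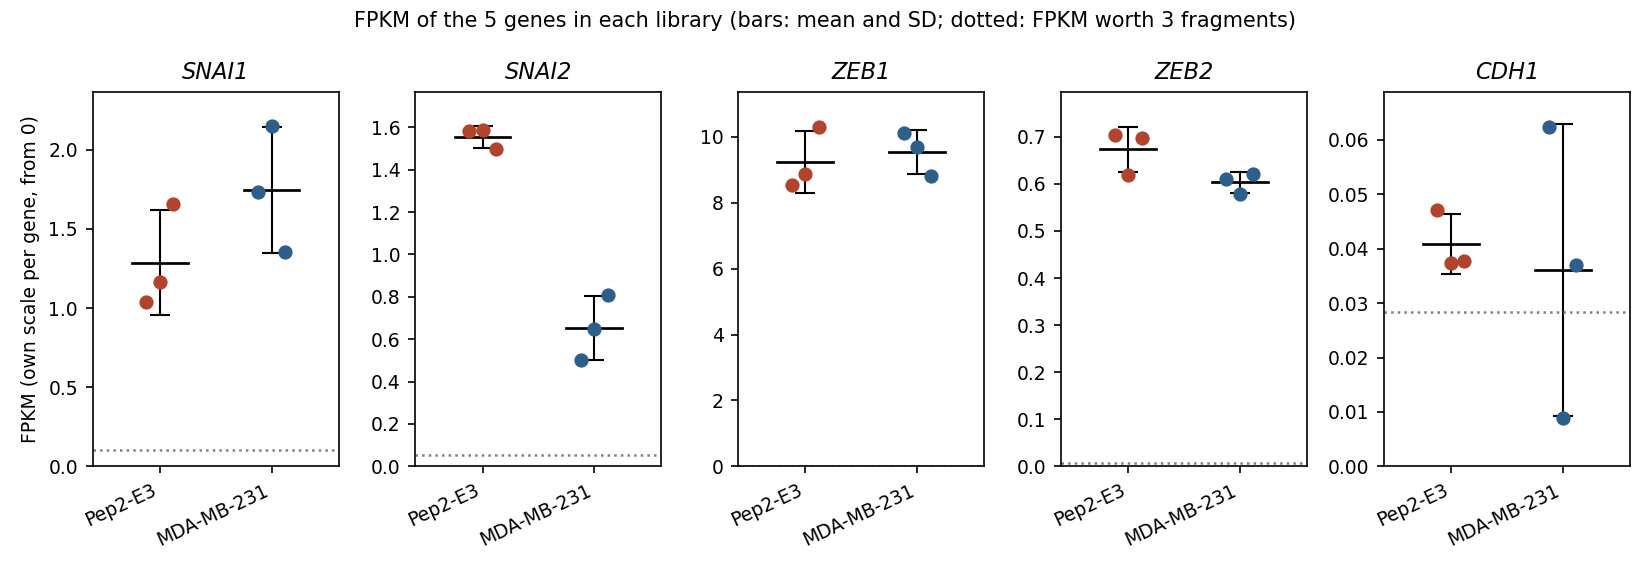
FPKM (y axis, own scale from 0 for each gene) of SNAI1, SNAI2, ZEB1, ZEB2 and CDH1 in the 3 Pep2-E3 and the 3 MDA-MB-231 libraries (points), with mean and SD (bars) and, dotted, the highest FPKM worth 3 fragments over the 6 libraries. The groups are separate for SNAI2, with 1.495 to 1.59 FPKM in Pep2-E3 and 0.503 to 0.807 FPKM in MDA-MB-231, they overlap for the other 4 genes, and CDH1 lies about the dotted line.

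SNAI1 (ENSG00000124216, chr20:49982999-49988886 on the plus strand) encodes Snail, the founding repressor of CDH1 in this family. It had 1.04, 1.17 and 1.66 FPKM in Pep2-E3 replicates 1, 2 and 3, against 1.73, 2.15 and 1.35 FPKM in MDA-MB-231 replicates 1, 2 and 3. The groups overlapped, because Pep2-E3 replicate 3 lay above MDA-MB-231 replicate 3. The means were 1.29 ± 0.329 FPKM in Pep2-E3 and 1.75 ± 0.399 FPKM in MDA-MB-231 (SD, n = 3 each). The log2 difference on the FPKM + 1 scale was -0.26, with a 95% interval of -0.61 to 0.08 and an adjusted p of 0.213 by limma, and it did not pass under any of 14 alternatives. The ratio of summed fragments, 112 in Pep2-E3 and 159 in MDA-MB-231, was 0.736 with a counting interval of 0.573 to 0.943. That interval lies below 1, but the libraries spread more widely than counting error, with an SD of 9.45 fragments against a counting SD of 6.11 in Pep2-E3 and of 13.0 against 7.28 in MDA-MB-231.

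SNAI1 and SNAI2 were also compared with each other within each library. The ratio of SNAI1 to SNAI2 FPKM was 0.656, 0.736 and 1.11 in the Pep2-E3 libraries and 3.44, 3.32 and 1.68 in the MDA-MB-231 libraries. SNAI1 was thus the higher of the pair in every MDA-MB-231 library and in 1 of 3 Pep2-E3 libraries, per kilobase of exon. Per length of the longest coding transcript, an alternative chosen after seeing the data, the ratio was 0.470 to 0.794 in Pep2-E3 and 1.2 to 2.46 in MDA-MB-231, so that SNAI2 was the higher of the pair in all 3 Pep2-E3 libraries. The mean ratio was 0.834 ± 0.242 in Pep2-E3 and 2.81 ± 0.985 in MDA-MB-231 (SD, n = 3 each), and the ratios of the groups did not overlap (exact permutation p = 0.1, the smallest possible). Single genes separated in this way in 48.8% of all tested genes, and no such share was computed for ratios. SNAI1 was not called, and the ratio contains the SNAI2 difference, so it is no separate result. The summed level of both genes, 2.84 ± 0.280 FPKM in Pep2-E3 and 2.397 ± 0.349 FPKM in MDA-MB-231 (SD, n = 3 each), overlapped between the groups.

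**Figure D2:**
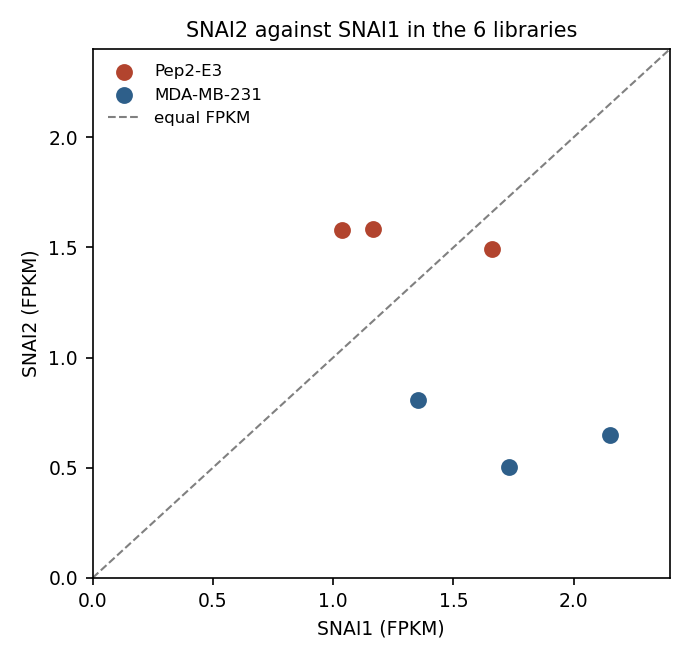
SNAI2 (y axis, FPKM) against SNAI1 (x axis, FPKM) in the 3 Pep2-E3 and the 3 MDA-MB-231 libraries, 1 point per library, with a dashed line of equal FPKM. All 3 MDA-MB-231 libraries lie under the line, and the Pep2-E3 libraries lie higher, with a ratio of SNAI1 to SNAI2 of 0.656 to 1.11 in Pep2-E3 and 1.68 to 3.44 in MDA-MB-231.

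ZEB1 and ZEB2 have in common a set of seed matches of the miR-200 family in their 3′ untranslated regions. The sequences are shown because the known feedback between ZEB factors and these microRNAs acts through them. The microRNAs themselves were not measured. The family has 2 seeds (bases 2 to 8, in capitals), each shown by 1 mature member from RefSeq (GRCh38.p14).
miR-200b-3p: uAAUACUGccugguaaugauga
miR-200a-3p: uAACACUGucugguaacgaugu
miR-200c-3p and miR-429 have the seed of miR-200b-3p, and miR-141-3p has that of miR-200a-3p. In the longest coding transcript of each gene in GENCODE release 29, the 3′ untranslated region of ZEB1 held 6 matches to the seed of miR-200b-3p (CAGTATT) and 3 to that of miR-200a-3p (CAGTGTT). That of ZEB2 held 5 and 4, and that of SNAI2 held 1 match, of the CAGTATT kind. SNAI1 and CDH1 held no such letters there. An example of each kind follows, with the match in capitals, for ZEB1 (plus strand) and for ZEB2 (minus strand), in GRCh38.
ZEB1 chr10:31528562-31528583: tgtcttcaaacctggCAGTATT
ZEB1 chr10:31528031-31528052: caaaatcatcagaatCAGTGTT
ZEB2 chr2:144389053-144389074: cgcactaccatacatCAGTATT
ZEB2 chr2:144388711-144388732: agtgccatccttgtaCAGTGTT
Such matches describe the sequence and do not show that a site was in use in these cells.

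ZEB1 (ENSG00000148516, chr10:31318495-31529814 on the plus strand) encodes a repressor with zinc finger clusters at both ends and was by FPKM the highest of the 4 factors. It had 8.53, 8.89 and 10.3 FPKM in Pep2-E3 replicates 1, 2 and 3, against 10.1, 9.71 and 8.80 FPKM in MDA-MB-231 replicates 1, 2 and 3. The highest and the lowest of the 6 values were both Pep2-E3 libraries. The means were 9.24 ± 0.943 FPKM in Pep2-E3 and 9.55 ± 0.679 FPKM in MDA-MB-231 (SD, n = 3 each), and the log2 difference was -0.04 with a 95% interval of -0.24 to 0.16 and an adjusted p of 0.72 by limma. ZEB1 rests on 1266 to 1530 fragments per Pep2-E3 library and on 1335 to 1591 per MDA-MB-231 library, so that counting error is small, and the counting interval of the ratio was 0.927 to 1.01. Without Pep2-E3 replicate 1 the log2 difference was 0.006, with an adjusted p of 0.963 by limma. ZEB1 made up 72.0% to 72.8% of the summed FPKM of the 4 factors in Pep2-E3 and 74.2% to 78.1% in MDA-MB-231.

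ZEB1-AS1, a non-coding transcript from the opposite strand at the start of ZEB1, had 0.791, 1.86 and 2.28 FPKM in Pep2-E3 replicates 1, 2 and 3, against 2.70, 3.05 and 2.75 FPKM in MDA-MB-231 replicates 1, 2 and 3. As in 48.8% of all tested genes, the groups did not overlap. Every Pep2-E3 library lay under every MDA-MB-231 library, with the outlying Pep2-E3 replicate 1 the lowest. The log2 difference was -0.58 with an adjusted p of 0.0804 by limma, and it did not pass. Without Pep2-E3 replicate 1 it was smaller, -0.32, and was called with an adjusted p of 0.0345 by limma, and leaving out Pep2-E3 replicate 3, or testing with limma-voom, also gave a call. Exons of ZEB1-AS1 share 9.55% of their bases with ZEB1 on the opposite strand, and 4.23% of ZEB1 exon bases lie in ZEB1-AS1. How much of either value comes from the other gene was not tested.

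ZEB2 (ENSG00000169554, chr2:144364364-144524583 on the minus strand) encodes the second ZEB repressor, also known as SIP1. It had 0.705, 0.619 and 0.698 FPKM in Pep2-E3 replicates 1, 2 and 3, against 0.611, 0.579 and 0.621 FPKM in MDA-MB-231 replicates 1, 2 and 3. Only Pep2-E3 replicate 2 fell within the MDA-MB-231 range. The means were 0.674 ± 0.0478 FPKM in Pep2-E3 and 0.604 ± 0.0222 FPKM in MDA-MB-231 (SD, n = 3 each), and the log2 difference was 0.06 with a 95% interval of -0.14 to 0.26 and an adjusted p of 0.611 by limma. The ratio of summed fragments, 871 in Pep2-E3 and 815 in MDA-MB-231, was 1.12 with a counting interval of 1.01 to 1.23. Exons of ZEB2 share 5.18% of their bases with ZEB2-AS1 on the opposite strand.

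ZEB1 FPKM exceeded ZEB2 FPKM in every library, by a ratio of 13.7 ± 1.44 in Pep2-E3 and 15.8 ± 1.45 in MDA-MB-231 (SD, n = 3 each). The size of this ratio depends on the length used. The deposited FPKM divide by the union of all annotated exons, 25058 bases for ZEB2 and 8650 for ZEB1. With the longest coding transcript, 9583 bases for ZEB2 and 6267 for ZEB1, the ratio was 7.26 ± 0.759 in Pep2-E3 and 8.36 ± 0.767 in MDA-MB-231. By FPKM the order in Pep2-E3 was ZEB1, then SNAI2 and SNAI1, whose values overlap, then ZEB2 and CDH1. In MDA-MB-231 it was ZEB1, SNAI1, SNAI2 and ZEB2, with the SNAI2 and ZEB2 values overlapping, and then CDH1. Per longest coding transcript ZEB2 moved above SNAI1 in Pep2-E3, with a ratio of ZEB2 to SNAI1 of 1.42 ± 0.340, and above SNAI2 in MDA-MB-231, with a ratio of ZEB2 to SNAI2 of 1.80 ± 0.429 (SD, n = 3). ZEB1 stayed the highest and CDH1 the lowest by either length.

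CDH1 (ENSG00000039068, chr16:68737225-68835548 on the plus strand) was at the limit of detection in both groups. It had 0.0472, 0.0375 and 0.0378 FPKM in Pep2-E3 replicates 1, 2 and 3, against 0.0624, 0.00889 and 0.0369 FPKM in MDA-MB-231 replicates 1, 2 and 3. These values are 5, 4 and 4 fragments in Pep2-E3 and 7, 1 and 4 fragments in MDA-MB-231. The level of 3 fragments, near the 1-sided upper 95% counting limit for a count of 0, is 0.0267 to 0.0283 FPKM. The values of the groups overlap. Pooled over 3 libraries, CDH1 had 0.0408 FPKM in Pep2-E3 (95% counting interval 0.0217 to 0.0697) and 0.0360 FPKM in MDA-MB-231 (0.0186 to 0.0630). The ratio of 1.13 had a counting interval of 0.476 to 2.71, and a difference within that interval was not detectable at this depth. In a fit of all 30099 genes without a filter, in which 11.3% were called, the log2 difference of CDH1 was 0.007 ± 0.025 (SE) with an adjusted p of 0.889 by limma. The pseudocount of 1 is far above the CDH1 level, so this scale compresses any difference and its SE. Limma-voom on the recovered fragments gave a log2 difference of 0.445 with an SE of 0.645. Exons of CDH1 share 5.62% of their bases with a non-coding gene on the opposite strand, so even these few fragments need not all be CDH1. Its mean FPKM lay at percentile 22.3 of all listed genes, against percentiles 63.4 for SNAI1, 60.3 for SNAI2, 83.7 for ZEB1 and 55.2 for ZEB2.

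**Figure D3:**
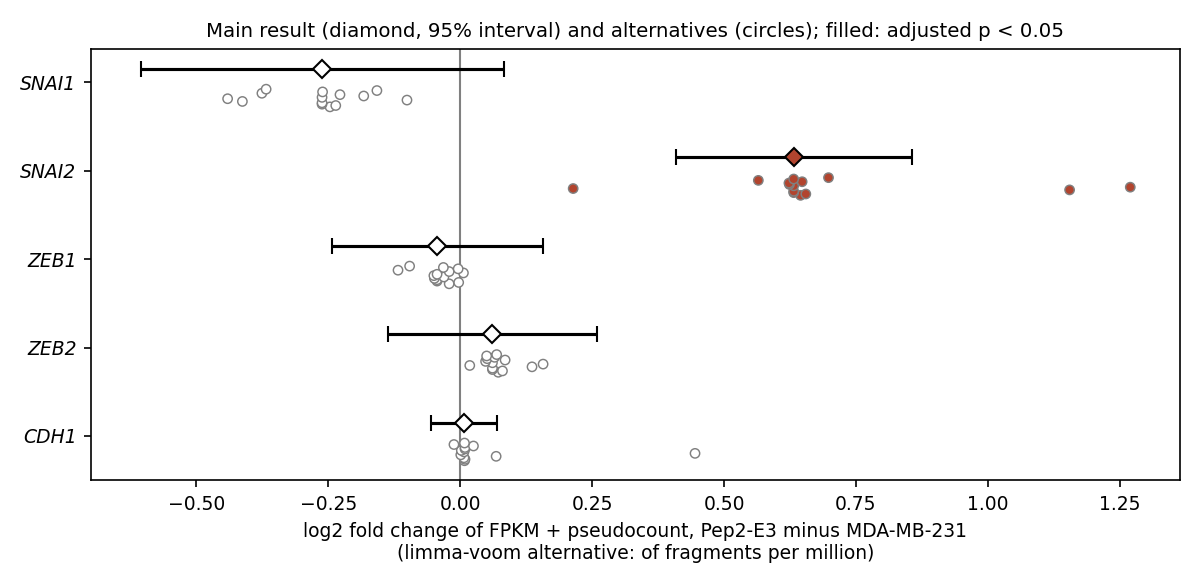
Log2 fold change of FPKM plus pseudocount, Pep2-E3 minus MDA-MB-231 (x axis), for the 5 genes, with the main result and its 95% interval (diamonds) above the alternatives (circles), filled where the adjusted p was under 0.05. The SNAI2 symbols are all filled and lie right of 0, from 0.21 to 1.27, and none is filled for SNAI1, ZEB1, ZEB2 or CDH1. The pseudocount compresses the CDH1 differences and their intervals.

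Among classical cadherins another gene was the highest in both groups. CDH4, which encodes R-cadherin, had 16.8, 14.5 and 15.6 FPKM in Pep2-E3 replicates 1, 2 and 3, against 24.4, 24.01 and 23.8 FPKM in MDA-MB-231 replicates 1, 2 and 3. All Pep2-E3 libraries lay under all MDA-MB-231 libraries, and groups without overlap were found for 48.8% of all tested genes. CDH4 fell by 0.59 on the log2 scale (SE 0.06, adjusted p = 0.00134 by limma) and was called in each fit that left out 1 library. CDH24 had 11.1 ± 1.14 FPKM in Pep2-E3 and 11.3 ± 0.301 FPKM in MDA-MB-231 (SD, n = 3 each), with an adjusted p of 0.82 by limma. The other 7 cadherins of the list, beside CDH1, did not reach the filter. CDH2, the N-cadherin often set against CDH1, had 0.0351 to 0.0589 FPKM in Pep2-E3 and 0.0115 to 0.0779 FPKM in MDA-MB-231. CDH3, or P-cadherin, had 0.00928 to 0.00935 FPKM in Pep2-E3, which is 1 fragment per library, and 0.0353 to 0.0617 FPKM in MDA-MB-231. CDH5, CDH6, CDH11, CDH13 and CDH15 had at most 0.0375 FPKM in any library.

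Around the 5 genes, 10 lists of EMT genes were examined, 192 genes in all, of which 177 have a value and 141 reached the filter. Of these 141, 46 (32.6%) were called, 21 higher and 25 lower in Pep2-E3, and their median log2 difference was -0.04, against 30.8% called and a median of -0.02 over all tested genes. The share called over the lists is thus near the background. Single lists lay on both sides of it, such as 14.3% of the other EMT transcription factors and 54.2% of the adhesion and polarity genes. Leaving out MDA-MB-231 replicate 1 or 2 moved the count of called genes to 30 and 26. That is 21.3% and 18.4% of the 141, against 19% and 17.4% of all tested genes in the same fits.

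Among 24 tested genes of adhesion and polarity that SNAI and ZEB proteins are reported to repress, 6 rose and 7 fell in Pep2-E3, with a median of -0.03. The share called was 54.2%, against 30.8% of all tested genes. The genes that fell were led by LLGL2, a cell polarity gene of the basolateral side, by CLDN4, a claudin of tight junctions, and by SPINT1, an inhibitor of membrane serine proteases. LLGL2 had 1.70, 1.499 and 1.67 FPKM in Pep2-E3, against 3.62, 3.76 and 3.72 FPKM in MDA-MB-231, a log2 difference of -0.84 (adjusted p = 0.000542 by limma). CLDN4 had 20.8, 18.7 and 18.5 FPKM in Pep2-E3, against 29.6, 31.6 and 31.8 FPKM in MDA-MB-231, a log2 difference of -0.65 (adjusted p = 0.00104 by limma). SPINT1 had 0.625, 0.343 and 0.560 FPKM in Pep2-E3, against 1.96, 2.25 and 1.74 FPKM in MDA-MB-231, a log2 difference of -0.98 (adjusted p = 0.00164 by limma). The claudins CLDN1, CLDN3 and CLDN7 also fell, with log2 differences of -0.34, -0.62 and -0.49.

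In the same list the genes that rose were led by AP1M2, which sorts proteins to the basolateral membrane, and by the keratins KRT18 and KRT8, which pair as filaments of simple epithelia. AP1M2 had 31.2, 29.8 and 26.8 FPKM in Pep2-E3, against 17.6, 17.0 and 19.9 FPKM in MDA-MB-231, a log2 difference of 0.66 (adjusted p = 0.00213 by limma). KRT18 averaged 39.7 ± 2.74 FPKM in Pep2-E3 and 27.7 ± 2.04 FPKM in MDA-MB-231, and KRT8 averaged 64.5 ± 4.05 FPKM in Pep2-E3 and 50.01 ± 2.75 FPKM in MDA-MB-231 (SD, n = 3 each). Both keratins have overlapping exons on opposite strands, 16.3% of KRT18 and 7.63% of KRT8 bases, and both have many processed copies, so their values are uncertain. The 4 claudins of the list thus fell while KRT8 and KRT18 rose. KRT19, the third keratin, averaged 93.8 ± 5.42 FPKM in Pep2-E3 and 100.6 ± 2.93 FPKM in MDA-MB-231 (SD, n = 3 each) and did not pass (adjusted p = 0.2 by limma). LLGL2, CLDN3, CLDN4, CLDN7, SPINT1, AP1M2, KRT18 and KRT8 were called in each of the 6 fits that left out 1 library. Without MDA-MB-231 replicate 2 the list had 8 called genes in place of 13, and CLDN1 had an adjusted p of 0.069 by limma. That fit called 17.4% of all tested genes, against 30.8% with all libraries.

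The motif bound by SNAI and ZEB proteins is the E-box CAGGTG, which reads CACCTG on the other strand, and RefSeq promoter windows (GRCh38.p14, from 250 bases before to 50 after the start) were searched for either word. Of all 35116 windows 20.6% held it, and of all 27305 genes with a window 24.1% did. Of the 32 adhesion and polarity genes 20 have a window, and 14 of these (70%) held the word, among them 4 of the 6 called lower with a window and 2 of the 4 called higher. Both directions of change thus occurred among genes with the word. The list was drawn from reported targets of these repressors, so its share is no independent result. The following stretches of such windows show the word, in capitals, in genes that fell and in genes that rose, on the strand of the gene.
SPINT1 chr15:40844439-40844468, plus strand, fell: tcccgggctgatCAGGTGtgtctcctcctc
CLDN7 chr17:7262635-7262664, minus strand, fell: tttcttcctcctCACCTGggcaaggagggg
AP1M2 chr19:10587352-10587381, minus strand, rose: gacagcgctgctCACCTGgccgcctcccct
DSP chr6:7541574-7541603, plus strand, rose: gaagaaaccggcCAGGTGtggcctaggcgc
A match is a description of the letters and not a bound site. DSP encodes desmoplakin, which ties keratin filaments to desmosomes, and its log2 difference was 0.27 with an adjusted p of 0.0163 by limma, and of 0.0627 without MDA-MB-231 replicate 3. ZEB1 held the word in 2 of 7 windows.

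Of the factors that hold epithelial identity, 5 reached the filter, and 60% of these were called, against 30.8% of all tested genes. GATA3, a luminal mammary transcription factor, rose, with 2.32, 2.32 and 1.66 FPKM in Pep2-E3, against 0.865, 0.927 and 0.747 FPKM in MDA-MB-231, a log2 difference of 0.74 (adjusted p = 0.00416 by limma). ESRP2, an epithelial splicing regulator, fell, with 3.74, 2.95 and 2.72 FPKM in Pep2-E3, against 4.74, 4.67 and 4.72 FPKM in MDA-MB-231, a log2 difference of -0.47 (adjusted p = 0.0121 by limma). Both were called in each fit that left out 1 library. KLF5 averaged 8.75 ± 1.40 FPKM in Pep2-E3 and 6.42 ± 0.426 FPKM in MDA-MB-231 (SD, n = 3 each) and was called with an adjusted p of 0.0375 by limma, but only 1 of those 6 fits called it, and without MDA-MB-231 replicate 3 its adjusted p was 0.116. Among genes under the filter, FOXA1, a luminal pioneer factor, averaged 0.394 ± 0.152 FPKM in Pep2-E3 and 0.0515 ± 0.0174 FPKM in MDA-MB-231 (SD, n = 3 each), with an adjusted p of 0.0387 in the limma fit without a filter. It was named after its values were seen.

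Of 14 tested EMT transcription factors outside the SNAI and ZEB families, 2 were called, both lower, and the median of the list was -0.006. That is 14.3%, against 30.8% of all tested genes. FOXQ1, a forkhead factor, had 1.06, 1.25 and 1.03 FPKM in Pep2-E3, against 2.27, 1.83 and 1.68 FPKM in MDA-MB-231, a log2 difference of -0.46 (adjusted p = 0.0145 by limma). The FOXQ1 values of the groups did not overlap, as in 48.8% of all tested genes. Without Pep2-E3 replicate 3 the list had 4 called genes, in a fit that called 29.9% of all tested genes. TWIST1 and TWIST2 are among 15 listed genes with no value and were not analysed here. SNAI3, the last member of its family, had 0.202 to 0.370 FPKM in Pep2-E3 and 0.254 to 0.412 FPKM in MDA-MB-231 and did not reach the filter. Its antisense partner SNAI3-AS1, also under the filter, had 0.243 to 0.382 FPKM in Pep2-E3 and 0.317 to 0.408 FPKM in MDA-MB-231.

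Mesenchymal markers moved in either direction, with 3 of 13 higher, 2 lower and a median of -0.05. Their share called was 38.5%, against 30.8% of all tested genes. S100A4, a calcium-binding protein of motile cells, had 12.7, 11.6 and 12.7 FPKM in Pep2-E3, against 7.25, 5.79 and 6.62 FPKM in MDA-MB-231, a log2 difference of 0.83 (adjusted p = 0.00128 by limma). LOX, which cross-links collagen, had 4.58, 7.01 and 7.62 FPKM in Pep2-E3, against 11.8, 11.7 and 10.8 FPKM in MDA-MB-231, a log2 difference of -0.77 (adjusted p = 0.0122 by limma), and without Pep2-E3 replicate 1, its lowest library, -0.58. TNC, a matrix glycoprotein, rose by a log2 difference of 0.36 (adjusted p = 0.0109 by limma). VIM averaged 158.5 ± 5.82 FPKM in Pep2-E3 and 174 ± 4.89 FPKM in MDA-MB-231 (SD, n = 3 each) with an adjusted p of 0.0639 by limma, and FN1, or fibronectin, averaged 21.7 ± 0.796 FPKM in Pep2-E3 and 21.6 ± 0.783 FPKM in MDA-MB-231, with an adjusted p of 0.946. The other called genes were MMP14 (0.19) and the receptor kinase gene AXL (-0.34 on the log2 scale). Both lost the call without any 1 of the MDA-MB-231 libraries, where the list had 3 called genes in place of 5. The fits without MDA-MB-231 replicates 1, 2 and 3 called 19%, 17.4% and 20.3% of all tested genes.

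**Figure D4:**
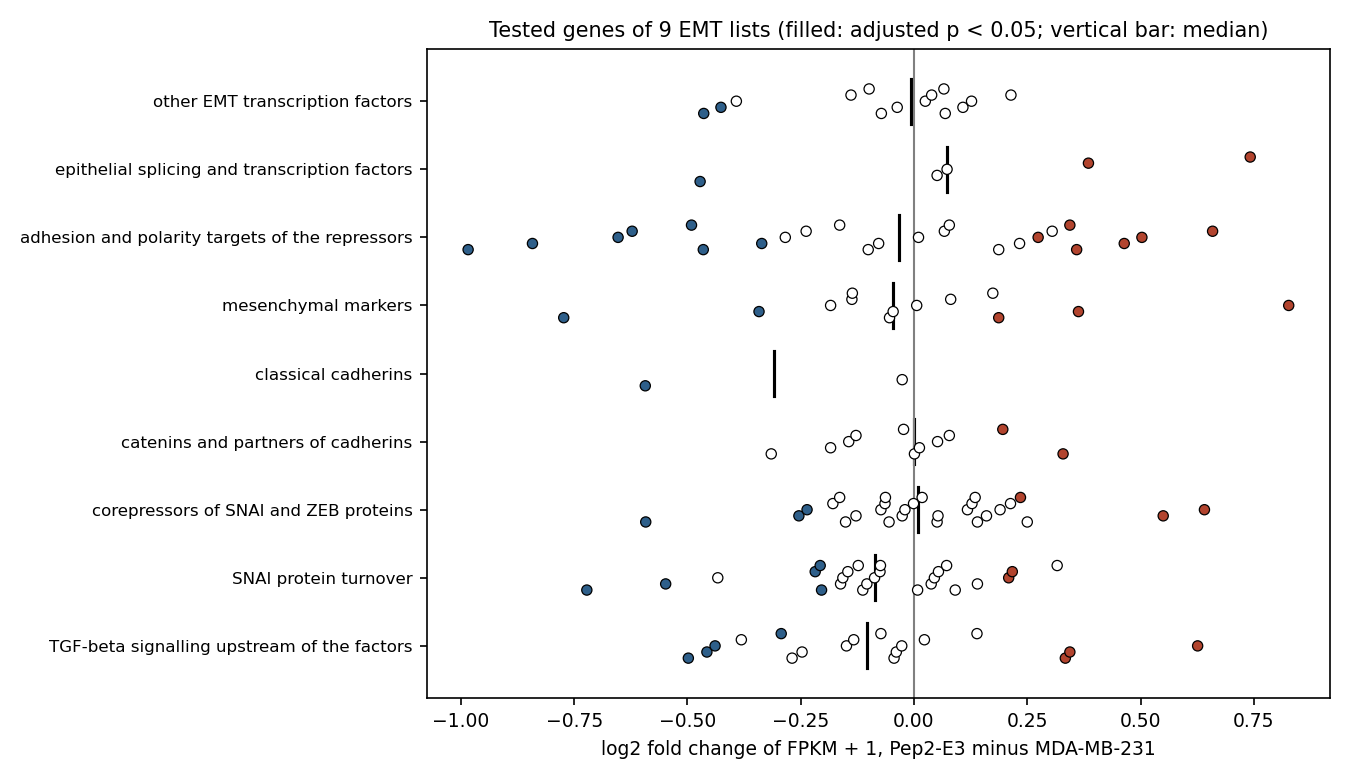
Log2 fold change of FPKM + 1, Pep2-E3 minus MDA-MB-231 (x axis), of the tested genes of 9 EMT lists (rows), 1 circle per gene, filled where the adjusted p was under 0.05, with the median of each list as a vertical bar. Filled circles lie on both sides of 0 in most lists, as for the adhesion and polarity genes with 6 higher and 7 lower, and the medians lie between -0.10 and 0.07 except for the 2 tested cadherins, with -0.31.

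A list of corepressors and other cofactors of SNAI and ZEB proteins, 28 genes, was tested in full, with 3 higher, 3 lower and a median of 0.008. Its share called was 21.4%, against 30.8% of all tested genes. AJUBA, a LIM protein that brings the arginine methyltransferase PRMT5 to SNAI1, had 35.5, 36.8 and 34.7 FPKM in Pep2-E3, against 23.1, 22.5 and 21.9 FPKM in MDA-MB-231, a log2 difference of 0.64 (adjusted p = 0.000463 by limma). WDR77, the partner subunit of PRMT5, rose by a log2 difference of 0.55 (adjusted p = 0.00113 by limma), with 24% of its exon bases shared with another gene on its own strand. RCOR1, the CoREST scaffold of the KDM1A demethylase, had 9.10, 8.96 and 10.99 FPKM in Pep2-E3, against 14.7 to 15.5 FPKM in MDA-MB-231, a log2 difference of -0.59 (adjusted p = 0.00307 by limma). These 3 genes were called in each fit that left out 1 library. EZH2 (0.23 on the log2 scale), KDM1A (-0.24) and LIMD1 (-0.25) lost the call in 3, 5 and 5 of those fits, and KDM1A and LIMD1 also with RLE or upper-quartile factors. The list had 3 called genes when Pep2-E3 replicate 2 or MDA-MB-231 replicate 1 or 3 was left out. Those fits called 21%, 19% and 20.3% of all tested genes.

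Of 25 tested genes that set the stability of SNAI proteins, 2 rose and 5 fell, with a median of -0.09. This share called, 28%, is near the 30.8% of all tested genes. FBXL5, a ubiquitin ligase subunit reported to mark SNAI1, had 13.1, 13.3 and 13.4 FPKM in Pep2-E3, against 22.6, 22.1 and 22.9 FPKM in MDA-MB-231, a log2 difference of -0.72 (adjusted p = 0.000253 by limma). FBXW7, another ligase subunit, had 1.69, 1.91 and 1.68 FPKM in Pep2-E3, against 3.27, 3.28 and 2.58 FPKM in MDA-MB-231, a log2 difference of -0.55 (adjusted p = 0.00666 by limma). Both were called in each fit that left out 1 library. USP10 (0.22), a deubiquitinase, CTDSP1 (0.21), a phosphatase, and the kinase gene CSNK1E (-0.20 on the log2 scale) were called, but lost the call without MDA-MB-231 replicate 2, where the list had 2 called genes in place of 7. That fit called 17.4% of all tested genes. The count of the list was 4 with upper-quartile factors and when Pep2-E3 replicate 2 or MDA-MB-231 replicate 1 was left out. It was 3 when MDA-MB-231 replicate 3 was left out. These fits called, in this order, 27.6%, 21%, 19% and 20.3% of all tested genes. Protein levels were not measured.

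Among 18 tested genes of TGF-beta signalling, the pathway that induces SNAI and ZEB genes in many epithelia, 3 rose and 4 fell, with a median of -0.10. In all, 38.9% of them were called, against 30.8% of all tested genes. BMP4, a ligand of the BMP branch, had 20.02, 18.8 and 16.7 FPKM in Pep2-E3, against 10.9, 11.7 and 12.3 FPKM in MDA-MB-231, a log2 difference of 0.63 (adjusted p = 0.00231 by limma). SMURF2, a ubiquitin ligase of receptors and SMAD proteins, had 30.7, 30.3 and 35.4 FPKM in Pep2-E3, against 43.3, 46.6 and 43.3 FPKM in MDA-MB-231, a log2 difference of -0.46 (adjusted p = 0.00469 by limma). TGIF1, a corepressor of SMAD proteins, fell by 0.44 on the log2 scale (adjusted p = 0.0027 by limma), and LTBP1, which anchors latent TGF-beta in the matrix, rose by a log2 difference of 0.33 (adjusted p = 0.012 by limma). These 4 genes were called in each fit that left out 1 library. SMAD7, the inhibitory SMAD (0.34), and TGFBR3, the co-receptor betaglycan (-0.50), lost the call without MDA-MB-231 replicate 1 or 2. In those fits the list had 4 called genes in place of 7, and 19% and 17.4% of all tested genes were called.

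Of 11 tested catenins and other partners of cadherins, 2 were called, both higher, and the median was 0.001. That is 18.2%, against 30.8% of all tested genes. CTNNB1, which encodes beta-catenin, averaged 30.0 ± 1.499 FPKM in Pep2-E3 and 26.0 ± 0.588 FPKM in MDA-MB-231 (SD, n = 3 each), a log2 difference of 0.20 (adjusted p = 0.0308 by limma). CTNNBL1, which is named for its likeness to catenin and is known as a spliceosome protein, rose by a log2 difference of 0.33 (adjusted p = 0.0136 by limma). CTNNB1 lost the call in 4 of the 6 fits that left out 1 library, and without MDA-MB-231 replicate 2 the adjusted p was 0.106 for CTNNB1 and 0.0572 for CTNNBL1 by limma. CTNNA1, or alpha-catenin, averaged 76.5 ± 3.496 FPKM in Pep2-E3 and 75.8 ± 1.80 FPKM in MDA-MB-231 (SD, n = 3 each), with an adjusted p of 0.876.

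The genes whose profile over the 6 libraries lay closest to each member were found by the root mean square difference of log2(FPKM + 1), each centred on its own mean. For SNAI2 they were RPSAP15, a ribosomal protein pseudogene, PHGDH, an enzyme of serine synthesis, and RPP25, a subunit of ribonuclease P, with differences of 0.05 to 0.06. PHGDH had 4.45, 3.84 and 4.11 FPKM in Pep2-E3, against 2.04, 2.32 and 2.55 FPKM in MDA-MB-231. For SNAI1 they were CRYGS, ZNF430 and STEAP2 at 0.06 to 0.07, for ZEB1 PARP8, NALCN and CLCN3 at 0.02, and for ZEB2 ARCN1, VPS16 and POLD3 at 0.008 to 0.01. Small differences for ZEB1 and ZEB2 go with their small spread over the libraries, and likeness over 6 libraries describes these libraries only. The pseudocount of 1 compresses the profiles of low genes such as SNAI1, SNAI2 and ZEB2. Their likeness to genes at higher FPKM, such as that of ZEB2 to ARCN1 at 60.05 to 65.4 FPKM, therefore depends on it.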

How the data were processed

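The authors deposited 1 table of FPKM per library. Per the submitters' processing notes, HISAT2 2, Bowtie2 2.2.3 and HTSeq 0.6.0 were used, with a mouse build named, but all 30099 identifiers are human and in GENCODE release 29 (GRCh38). A NEBNext Ultra kit was used, per the labels' protocols. FPKM times union exon length and library total gave whole fragments within 0.001 for 100% of 180594 values. The test was limma-trend (limma 3.58.1, R 4.3.3) on log2(FPKM + 1), group as the only term, for genes with a mean of at least 0.5 FPKM. CDH1, under the filter, was taken from the fit without one. The script was tested on simulated data. Of each list the text names up to 3 genes with the smallest p in each direction, every cadherin and antisense gene with a value, and the 3 nearest profiles of each member; other names were chosen after values were seen. Members and lists were chosen with earlier results of these data known. Alternatives were RLE and upper-quartile factors, no filter, 1 CPM in 3 libraries, pseudocounts 0.1 and 5, limma-voom on fragments, a replicate block, leaving out each library and, chosen after seeing the data, transcript lengths. Fits that leave out a library assume that the rest vary alike in both groups. Of the genes that this rule takes, 1 is not reported here.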

Additional observations from a re-analysis of the deposited data

How the results depend on the processing

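SNAI2 kept its direction and its call under all 14 alternatives, and SNAI1 and ZEB2 kept their direction and stayed above the threshold of 0.05 under all 14. The log2 difference of ZEB1 changed sign without Pep2-E3 replicate 1, to 0.006, and that of CDH1 without MDA-MB-231 replicate 2, to -0.012. Both are under their standard errors, of 0.082 for ZEB1 and 0.016 for CDH1, and the cause was not tested. When 1 library was left out at a time, the log2 difference was -0.38 to -0.16 for SNAI1, 0.57 to 0.70 for SNAI2, -0.12 to 0.006 for ZEB1, 0.05 to 0.09 for ZEB2 and -0.012 to 0.025 for CDH1. The CDH1 differences and their standard errors are compressed by the pseudocount. The count of called genes was then 2471 to 4866 over all genes, against 4383 with all libraries, and 26 to 53 over the EMT lists, against 46. Fewer libraries give fewer degrees of freedom, yet leaving out Pep2-E3 replicate 1 raised both counts.

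The labels do not state whether the replicate numbers pair the libraries. Same-numbered libraries had deviations correlated at -0.042, 0.038 and -0.061, and libraries with other numbers at -0.052 to 0.087. With 3 libraries per group, such correlations cannot decide whether the libraries were paired. With the number as a block, 2966 genes and 32 list genes were called, SNAI2 among them, and no other member. Depth limits CDH1 most, at 1 to 7 fragments per library. By transcript length ZEB1 over ZEB2 was 7.26 in Pep2-E3 and 8.36 in MDA-MB-231, ZEB2 over SNAI2 0.813 in Pep2-E3 and 1.80 in MDA-MB-231, and ZEB2 over SNAI1 1.42 in Pep2-E3 and 0.943 in MDA-MB-231.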

Other observations

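EHF, an epithelial factor of the ETS family, did not reach the filter and had 0.593 to 0.784 FPKM in Pep2-E3 and 0.169 to 0.314 FPKM in MDA-MB-231, with an adjusted p of 0.0281 in the limma fit without a filter. TGFB3, a TGF-beta ligand also under the filter, had 0.530 to 0.700 FPKM in Pep2-E3 and 0.246 to 0.268 FPKM in MDA-MB-231 (adjusted p = 0.027 in the same limma fit). MUC1, a mucin of luminal epithelia, had at most 0.0736 FPKM in Pep2-E3 and 0.140 to 0.198 FPKM in MDA-MB-231 (adjusted p = 0.0405 in the same limma fit). ESRP1, an epithelial splicing regulator, had 0.0120 to 0.142 FPKM in Pep2-E3 and 0.210 to 0.294 FPKM in MDA-MB-231 and did not pass (adjusted p = 0.063 in the same limma fit). PDGFRB, a growth factor receptor gene used as a fibroblast marker, had 0.0735 to 0.0973 FPKM in Pep2-E3 and 0.463 to 0.485 FPKM in MDA-MB-231 (adjusted p = 0.00421 in the same limma fit). These genes were chosen after their values were seen.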
